A study of Mus musculus with 4 samples.

Results

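Chemokines and chemokine receptors were examined in medullary thymic epithelial cells (mTECs) with and without deletion of Sirt6. The members were every gene symbol of the 4 chemokine families and their numbered receptors (Ccl, Cxcl, Ccr and Cxcr followed by a number, with Xcl1, Xcr1, Cx3cl1 and Cx3cr1). There were 58 such symbols among 23337 genes, 39 of ligands and 19 of receptors. The near-identical copies Ccl21a, Ccl21b and Ccl21c were summed and are called Ccl21 below, which left 56 members (37 ligands and 19 receptors).

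mTECs (CD45-EpCAM+UEA-1+Ly51-) were sorted from the thymus of 4-week-old C57BL/6 mice and sequenced as RNA. The 2 control libraries came from wild-type (WT) mice. The 2 libraries labelled Sirt6 cKO came from mice with loxP-flanked Sirt6 alleles and Cre driven by Foxn1, a promoter that is active throughout the thymic epithelial lineage, cortical cells included, so the deletion is not limited to mTECs. Each group held 2 parallel samples, which the study's methods call independent. The labels do not say from how many animals a sample came, and p-values measure the spread between these samples. As a check of these labels, WT held 622 and 755 Sirt6 counts and Sirt6 cKO held 882 and 835, for a difference of 0.37 on the log2 scale with a standard error of 0.32. The transcript was therefore not lower in these libraries where the gene is labelled as deleted. Apart from the sequencing, the study states that Sirt6 was inactivated. It cites genotyping, a western blot of cultured thymic epithelial cells, and quantitative PCR of Sirt6 in sorted mTECs and cortical cells. A count over the whole gene also holds reads from outside a deleted part, and each direction below rests on the labels.

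Chemokines are small secreted proteins that bind G protein-coupled receptors and steer the movement of leukocytes along gradients. In the thymus, CCL25 and CXCL12 act on immature thymocytes, and CCL19 and CCL21, the ligands of CCR7, draw positively selected thymocytes from the cortex into the medulla. CCL17 and CCL22 bind CCR4, XCL1 made by mature mTECs attracts XCR1+ dendritic cells, and CCL21 is a product of a distinct set of mTECs that are not the Aire-expressing ones.

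Between 61102704 and 65907745 counts were assigned to genes in each library, and the members took 0.612% to 0.831% of them. Markers of mTECs were present in all libraries, with a summed level of 6290 and 7408 TPM in WT and 6671 and 8193 TPM in Sirt6 cKO over 9 genes. TPM, the length-corrected transcript level that StringTie gives, is the scale used below to compare genes with each other. Markers of other cells were present as well. The macrophage list had 10 genes in the files, none of them at 0, and summed to 11480 and 6797 TPM in WT against 4186 and 4506 TPM in Sirt6 cKO, with 6 of the 10 lower at an unadjusted p of 0.05. Of the other lists, none of 13 thymocyte genes, 6 endothelial genes, 4 granulocyte genes and 6 general leukocyte genes passed in either direction, while 3 of 7 tuft cell genes were lower. Higher at this threshold were 3 of the 9 mTEC genes, 4 of 11 mature mTEC genes, 3 of 8 cortical epithelial genes and 1 of 7 B cell genes. Among all genes tested, 3.31% were lower and 5.28% higher at this threshold. Fewer cells of a type and less RNA per cell cannot be told apart in sorted bulk samples.

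Differences are log2 fold changes of Sirt6 cKO over WT from edgeR's quasi-likelihood test on the counts, fitted to all genes. The filter on low counts kept 55 of the 56 members, and Ccl26 had 0 counts in every library. Of the 55, Ccl24, Ccl8 and Cxcr1, named after their values were seen, reached the filter in both WT libraries but not in both Sirt6 cKO libraries. Single values were not tested by permutation, since 4 libraries in 2 groups allow no two-sided exact p below 0.333.

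Lower chemokine transcripts in Sirt6 cKO mTECs were led by Ccl21, Ccl11 and the receptor gene Cxcr6, and higher ones by Cx3cl1, Cxcl16, Cxcl2 and Cxcl1. At an unadjusted p of 0.05, 8 of the 55 tested members (14.5%) were lower, against 3.31% of the 18545 genes tested. At the same threshold 4 members (7.27%) were higher, against 5.28% of all genes. In both directions together 12 members passed, or 21.8% against 8.59%. With libraries scaled by their size alone or by the upper quartile, 1 member was higher and 9 were lower, while higher genes made up 46.3% and 48.4% of all genes called in place of 61.5%. After Benjamini-Hochberg adjustment over all genes none of the 55 passed, and the background was 0.00539%, a single gene. The smallest adjusted p of a member was 0.54 by edgeR, and the 12 members had adjusted p-values up to 0.57. DESeq2 gave an adjusted p under 0.05 for 3 of 55 members (5.45%), Ccl21, Ccl11 and Cxcr6, against 1.82% of the genes that it adjusted.

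The 2 libraries of one group lay entirely below the 2 of the other more often in one direction. In 22 members (40.0%) both Sirt6 cKO libraries were below both WT libraries, a pattern held by 20.3% of all genes, and in 7 members (12.7%) both were above, against 21.6% of all genes. Without the 3 members that did not reach the filter in both Sirt6 cKO libraries, the same counts were 19 and 7 of 52. The shares of all genes were not restricted in this way. The median log2 fold change was -0.28 over 36 ligands and -0.09 over 19 receptors, beside -0.005 over all genes. Without those 3 members it was -0.22 over 34 ligands and -0.065 over 18 receptors. The members at 10 TPM or more held 10 of the 12 that passed, and their standard errors had a median of 0.26 on the log2 scale. The 20 tested members under 10 TPM had a median standard error of 0.79, so that changes in them were hardly detectable at this replication.

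**Figure D1:**
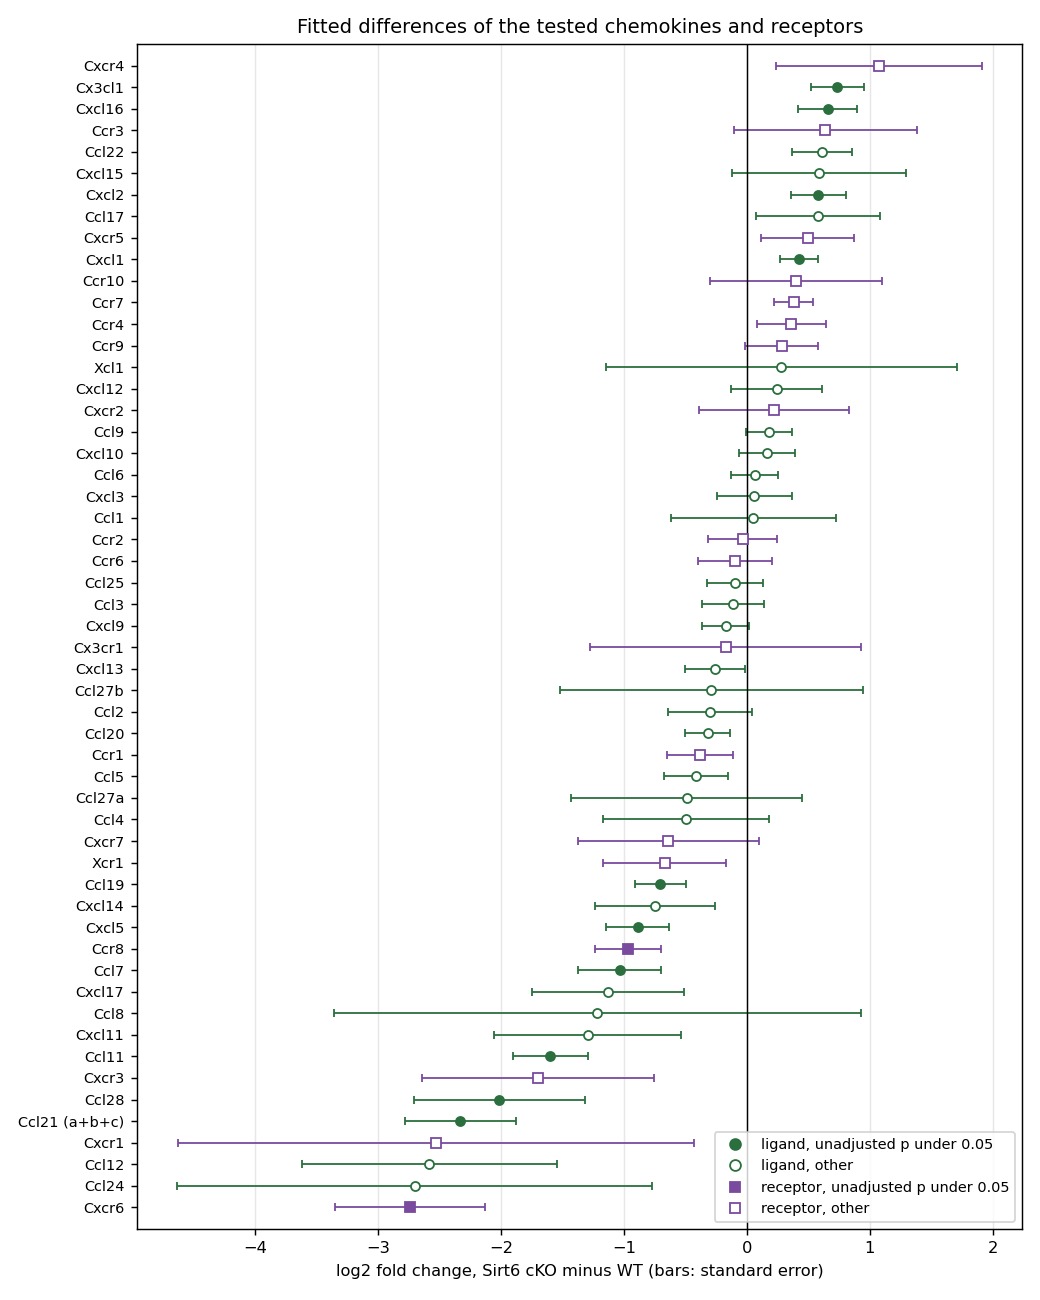
Log2 fold change of Sirt6 cKO over WT for the tested members whose values are reported, with bars of 1 standard error from edgeR, circles for ligands, squares for receptors and filled symbols for an unadjusted p under 0.05. Filled symbols run from -2.74 for Cxcr6 to 0.73 for Cx3cl1, and the members with the widest bars (Ccl8, Cxcr1 and Ccl24) are open.

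The most abundant chemokine of WT mTECs was Ccl21, and it was the member with the largest loss among those above 100 TPM. WT 1 stood at 2287 TPM and WT 2 at 5530 TPM, whereas Sirt6 cKO 1 stood at 615 TPM and Sirt6 cKO 2 at 920 TPM. The groups did not overlap, but the WT libraries were themselves far apart, and WT 2 alone held 58.3% of all Ccl21 counts. The log2 fold change was -2.33 (standard error 0.45, unadjusted p = 0.0028, adjusted p = 0.54 by edgeR), which corresponds to a 5.03-fold lower level. It was -1.59 without WT 2 and -2.84 without WT 1, and its unadjusted p stayed under 0.05 in both cases. DESeq2 gave an adjusted p of 8.98e-06.

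Many reads of the copies behind this sum cannot be assigned to 1 copy. Ccl21a lies at chr4:42772860-42773993 on the minus strand and Ccl21b at chr4:42255767-42256432 on the plus strand (GRCm38, the assembly of mm10, annotation GENCODE M21). Their coding sequences are 402 bases long and differ at 2 of them. The stretch that holds both differences, coding bases 75 to 204 counted from the start codon, is shown to make plain how little a read has to go on, with the differing bases in capitals (T84A and C194T, the base of Ccl21a first).
Ccl21a: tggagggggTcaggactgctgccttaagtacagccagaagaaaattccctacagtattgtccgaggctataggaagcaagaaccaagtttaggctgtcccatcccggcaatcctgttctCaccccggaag
Ccl21b: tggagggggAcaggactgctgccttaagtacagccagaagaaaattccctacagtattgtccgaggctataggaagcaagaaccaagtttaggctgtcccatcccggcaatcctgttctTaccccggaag
The further copies Gm10591, Gm13304 and Gm21541 carry the Ccl21b bases at both positions. Every 50-base word of the annotated Ccl21b transcript occurs in another gene, and so do 71.6% of those of Ccl21a.

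Ccl21a and Ccl21b moved together in every library. Ccl21b had 25396 and 56205 counts in WT against 5598 and 9789 in Sirt6 cKO, and the ratio of Ccl21a to Ccl21b stayed between 1.29 and 1.49 in the 4 libraries. Fitted as separate genes, the log2 fold changes were -2.37 for Ccl21a and -2.37 for Ccl21b. The deposited row Ccl21c went the other way, with 448 and 131 counts in WT against 628 and 514 in Sirt6 cKO (log2 fold change 1.05, standard error 0.65), but it made up 0.097% to 4.32% of the sum. Gm10591 and Gm13304 followed Ccl21c, with 515 and 133 against 769 and 597 counts and 406 and 131 against 587 and 492 counts. Their log2 fold changes were 1.15 (standard error 0.68) and 1.07 (standard error 0.62), and neither they nor Ccl21c passed. In all 3 of these rows the WT 2 library was the lowest, whereas for Ccl21a and Ccl21b it was the highest. Gm1987 was lower like Ccl21a, with 1450 and 419 counts in WT against 96 and 175 in Sirt6 cKO (-2.73, standard error 0.71, unadjusted p = 0.010), and WT 1 held 67.8% of its counts. Adding the copies Gm1987, Gm10591 and Gm13304 to the sum, 0.51% to 9.98% of it, left 8 members lower and 4 higher.

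The starts of these copies are nearly the same sequence. The 249 bases up to the RefSeq start of Ccl21a (chr4:42773992-42774240, minus strand, GRCm38.p6) and 249 bases before that of Gm10591 (chr4:42611873-42612121, plus strand) are 99.2% identical. The Gm10591 stretch ends a base short of its start, so that the copies align without a gap. Both stretches are shown because the fitted values of these rows had opposite signs, although that of Gm10591 did not pass. The 2 bases that differ are in capitals.
Ccl21a: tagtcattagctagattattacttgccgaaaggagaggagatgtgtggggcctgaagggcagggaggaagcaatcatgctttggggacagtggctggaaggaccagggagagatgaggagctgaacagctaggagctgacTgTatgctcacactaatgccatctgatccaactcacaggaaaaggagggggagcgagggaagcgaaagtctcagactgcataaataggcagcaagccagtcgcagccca
Gm10591: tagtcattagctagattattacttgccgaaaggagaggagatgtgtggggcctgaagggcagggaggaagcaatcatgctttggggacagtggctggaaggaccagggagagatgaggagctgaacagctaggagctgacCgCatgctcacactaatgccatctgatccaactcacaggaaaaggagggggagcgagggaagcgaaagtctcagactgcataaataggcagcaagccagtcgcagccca

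Ccl19, the other ligand of CCR7, was lower too but by less. Its level was 522 and 613 TPM in WT and 301 and 391 TPM in Sirt6 cKO, without overlap. The log2 fold change was -0.70 (standard error 0.21, unadjusted p = 0.018), and the ratio of Ccl21 to Ccl19 TPM was 4.38 and 9.02 in WT against 2.05 and 2.35 in Sirt6 cKO. Of the 50-base words of Ccl19, 59.1% occur in the related rows Gm2564, Gm12407 and 2 annotated Ccl19 pseudogenes, so its count may be shared with them. Ccl19 did not pass without WT 2 (-0.60) or without Sirt6 cKO 1 (-0.53).

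Ccr7, the receptor of both ligands, was the only receptor gene above 100 TPM. Its level was 513 and 543 TPM in WT and 627 and 738 TPM in Sirt6 cKO. Both Sirt6 cKO libraries were above both WT libraries, and the log2 fold change of 0.38 (standard error 0.16) did not pass (unadjusted p = 0.056), although it did without Sirt6 cKO 1 (0.49). Ccr7 made up 54.4% to 65.1% of all receptor TPM. Immature mTEC markers were summed beside these values. Over 8 genes they stood at 1957 and 1518 TPM in WT and 1023 and 1002 TPM in Sirt6 cKO, which was Apoe in the main, a gene that macrophages also express, since without it the sums were 345 and 576 TPM in WT and 672 and 550 TPM in Sirt6 cKO. Whether a change in cell makeup had a part in the Ccl21 difference was not tested.

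Ccl22, a ligand of CCR4 on T cells and their progenitors, became the most abundant chemokine in the libraries labelled Sirt6 cKO. WT 1 and WT 2 stood at 1549 and 1837 TPM, Sirt6 cKO 1 at 1986 TPM and Sirt6 cKO 2 at 3159 TPM. The groups did not overlap, the second Sirt6 cKO library was well above the rest, and the log2 fold change was 0.61 (standard error 0.25, unadjusted p = 0.051). It was 0.91 without Sirt6 cKO 1, where Ccl22 passed, and 0.23 without Sirt6 cKO 2. Ccl22 also passed in 3 of 9 other fits to all 4 libraries, among them DESeq2 before adjustment. The second CCR4 ligand, Ccl17, was at 14.9 and 16.1 TPM in WT and 17.5 and 28.7 TPM in Sirt6 cKO, again highest in Sirt6 cKO 2 (0.58, standard error 0.50). Ccr4 overlapped between the groups, with 34.8 and 39.2 TPM in WT and 37.6 and 56.8 TPM in Sirt6 cKO. The ratio of Ccl22 to Ccl21 TPM was 0.68 and 0.33 in WT and 3.23 and 3.43 in Sirt6 cKO. Of the 11 mature mTEC markers 8 had a log2 fold change above 0 and 3 below, and 4 passed as higher. Their sums overlapped, at 53280 and 55450 TPM in WT and 56250 and 49540 TPM in Sirt6 cKO. Among those that passed, Aire was at 395 and 496 TPM in WT and 632 and 754 TPM in Sirt6 cKO. Spib was at 403 and 413 against 868 and 908 TPM. The part of these markers in the Ccl22 values was not tested.

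The other thymic homing ligands overlapped between the groups. Ccl25, the CCR9 ligand made by cortical epithelium above all, was at 161 and 160 TPM in WT and 169 and 129 TPM in Sirt6 cKO (-0.10, standard error 0.23). Its receptor gene Ccr9 was at 78.9 and 52.2 TPM in WT and 92.8 and 66.0 TPM in Sirt6 cKO, and 1932 bases of its exons lie opposite another annotated gene, so its reads may not all be its own. Cxcl12, the ligand of CXCR4, was at 111 and 71.2 TPM in WT and 118 and 64.2 TPM in Sirt6 cKO. In each group the first library held more Cxcl12 than the second, and the groups overlapped. Xcl1 had 22 and 13 counts in WT against 17 and 24 in Sirt6 cKO, about 1 TPM throughout, so a change in it was not detectable at this depth. Of the 7 thymic homing ligands together, 2 were lower and none was higher, beside 3.31% and 5.28% of all genes. The 7 ligands had a median log2 fold change of 0.24.

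**Figure D2:**
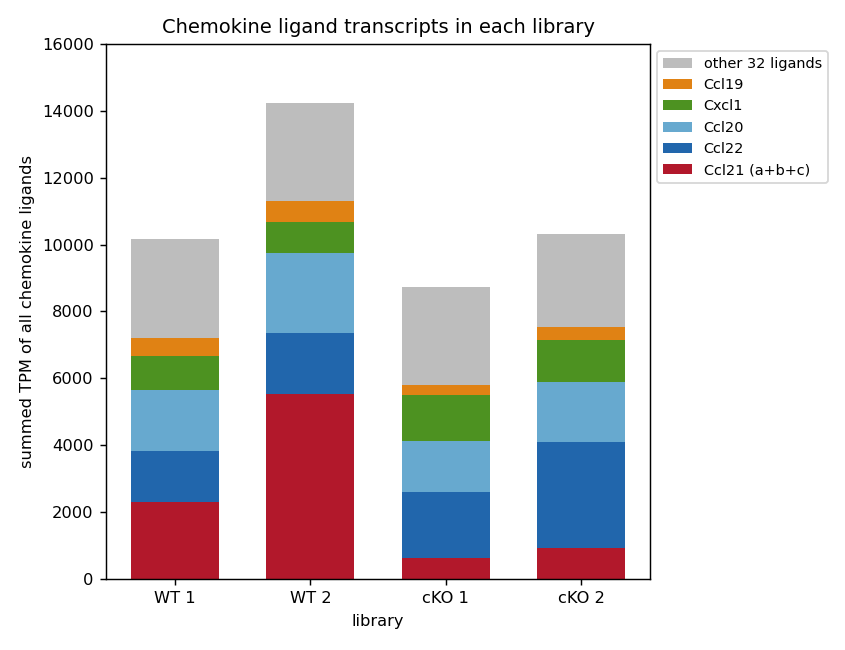
Stacked bars of the summed TPM of all 37 chemokine ligands in each of the 4 libraries, split into Ccl21, Ccl22, Ccl20, Cxcl1, Ccl19 and the other 32 ligands. Ccl21 makes up 22.5% and 38.8% of the bar in WT and 7.06% and 8.92% in Sirt6 cKO, while Ccl22 makes up 15.3% and 12.9% in WT and 22.8% and 30.6% in Sirt6 cKO.

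The makeup of ligand transcripts shifted with these genes. All 37 ligands summed to 10155 and 14237 TPM in WT and to 8715 and 10312 TPM in Sirt6 cKO, so the sums overlapped. Without Ccl21 the sums were 7868 and 8707 TPM in WT and 8100 and 9392 TPM in Sirt6 cKO, which also overlapped. Ccl21 ranked first of the ligands in both WT libraries and number 4 in both Sirt6 cKO libraries, after Ccl22, Ccl20 and Cxcl1. The 19 receptors summed to 943 and 901 TPM in WT and 1003 and 1134 TPM in Sirt6 cKO.

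The ligands made by epithelia and lymphoid tissue held changes in both directions. Of 9 such genes 2 were higher and 1 was lower, beside 5.28% and 3.31% of all genes. The 9 genes had a median of -0.32. Ccl20, the CCR6 ligand that attracts B cells and dendritic cell precursors, was the third most abundant member at 1822 and 2368 TPM in WT and 1528 and 1805 TPM in Sirt6 cKO. Its groups differed by less than the spread between the WT libraries, and the log2 fold change of -0.32 (standard error 0.19) did not pass. Ccr6 was at 17.7 and 18.1 TPM in WT and 18.7 and 15.9 TPM in Sirt6 cKO.

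Both transmembrane chemokines were higher. Cx3cl1, which tethers CX3CR1+ monocytes and macrophages, was at 59.8 and 81.5 TPM in WT and 121 and 112 TPM in Sirt6 cKO (log2 fold change 0.73, standard error 0.21, unadjusted p = 0.016). Cxcl16, the CXCR6 ligand, was at 44.2 and 40.0 TPM in WT and 57.9 and 74.2 TPM in Sirt6 cKO (0.66, standard error 0.24, unadjusted p = 0.037). Neither overlapped between the groups. Cx3cl1 did not pass without WT 1 (0.52) or without Sirt6 cKO 1 (0.68), and Cxcl16 passed only without Sirt6 cKO 1 among the fits with a library left out (0.46 to 0.82). In the annotation 552 bases of Cxcl16 exons lie opposite Zmynd15, and reads of the pair cannot be told apart without strand.

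Their receptor genes did not move with them. Cxcr6, found on innate-like and activated T cells, was at 6.78 and 16.2 TPM in WT and 1.37 and 2.02 TPM in Sirt6 cKO. It had the lowest fold change of all members at -2.74 (standard error 0.61, unadjusted p = 0.0053), without overlap, and WT 2 held 60.5% of its counts. It passed without any single library, at -2.01 without WT 2. Cx3cr1 had 1268 and 91 counts in WT against 390 and 769 in Sirt6 cKO. WT 1 held 50.4% of all Cx3cr1 counts and WT 2 the fewest, and the log2 fold change of -0.17 (standard error 1.10) turned to 2.67 without WT 1, where it passed.

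Ccl28, a CCR10 ligand of mucosal epithelia, was the epithelial ligand that was lower. It was at 2.24 and 7.33 TPM in WT and 0.98 and 1.35 TPM in Sirt6 cKO, with 60.8% of its counts in WT 2. The log2 fold change of -2.02 (standard error 0.70, unadjusted p = 0.031) was -0.96 without WT 2 and did not pass then, nor without either Sirt6 cKO library (-1.81 and -2.28) or in limma on TPM. Its receptor gene Ccr10, named after its values were seen, overlapped between the groups, with 11.9 and 3.86 TPM in WT and 14.2 and 6.52 TPM in Sirt6 cKO.

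**Figure D3:**
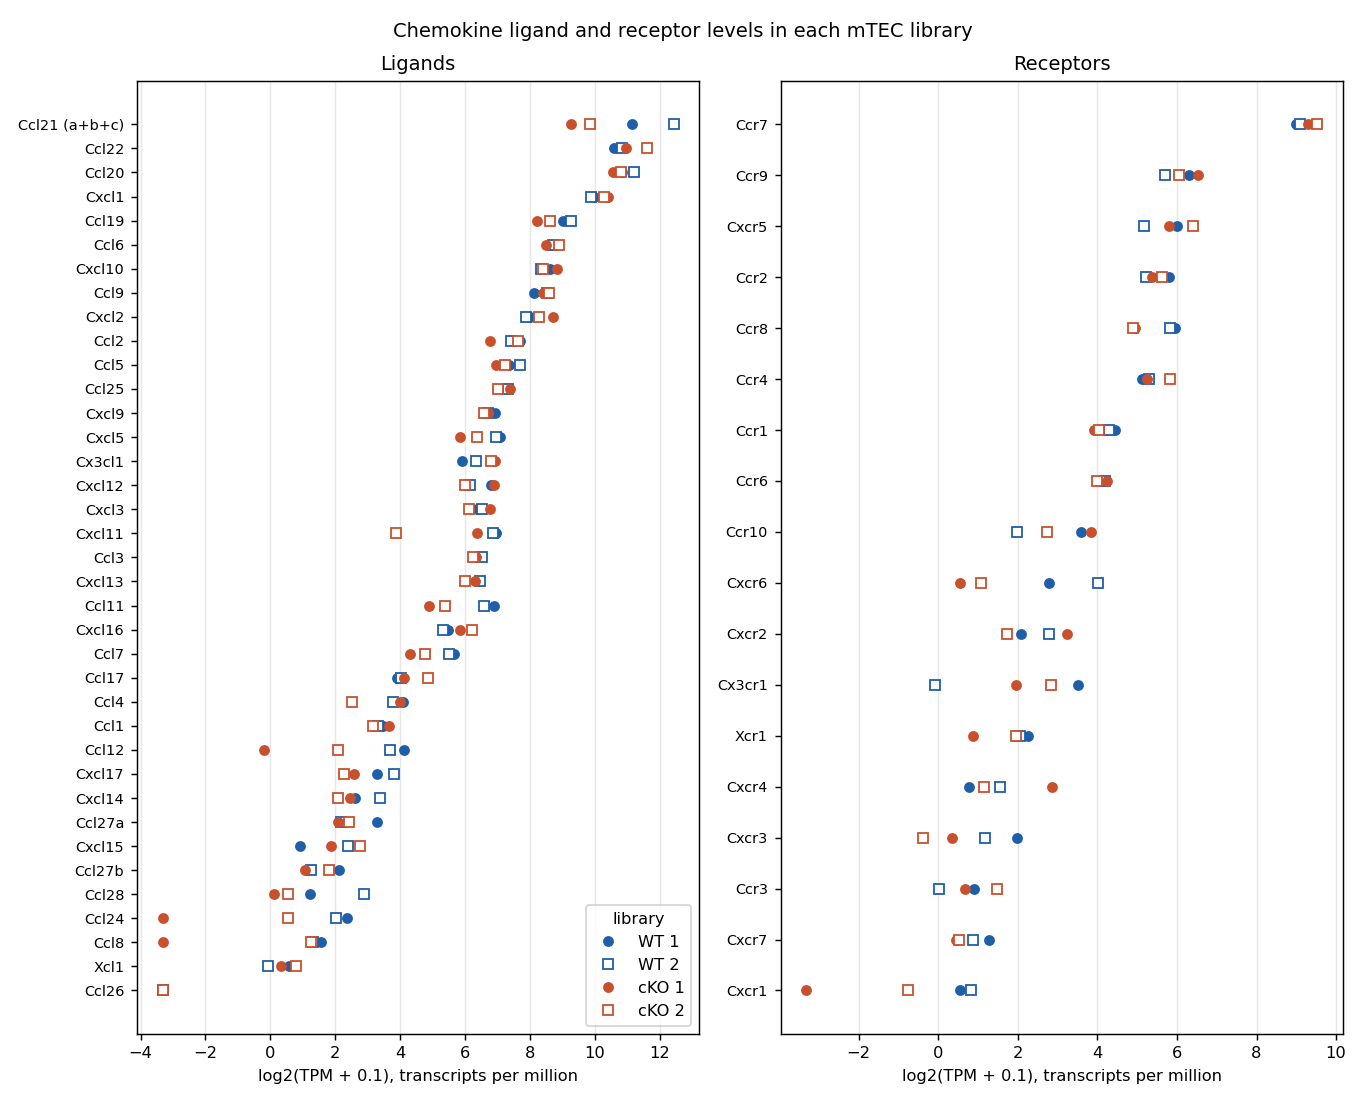
Level of each reported member in each library as log2(TPM + 0.1), ligands on the left and receptors on the right, ordered by mean TPM, with WT in blue, Sirt6 cKO in orange, filled circles for the first and open squares for the second library of a group. Ccl21 is at the top of the ligands with both orange symbols left of both blue ones, and Cxcr6 and Ccr8 show the same order among the receptors.

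The inflammatory CC ligands recruit monocytes, eosinophils and effector T cells. Of the 12 tested, 2 were lower and none was higher, beside 3.31% and 5.28% of all genes. The median log2 fold change was -0.46, and -0.36 over the 10 without Ccl24 and Ccl8. Ccl11 (eotaxin, a ligand of CCR3) was at 120 and 96.2 TPM in WT and 29.5 and 41.5 TPM in Sirt6 cKO. Its groups stood well apart, the log2 fold change was -1.60 (standard error 0.30, unadjusted p = 0.0026), and it passed with each library left out in turn, from -1.87 to -1.38. Ccl7, a ligand of CCR2 and other receptors on monocytes, was at 51.0 and 45.0 TPM in WT and 19.7 and 27.0 TPM in Sirt6 cKO (-1.03, standard error 0.34, unadjusted p = 0.025), and did not pass without WT 1 (-0.94) or without Sirt6 cKO 1 (-0.82).

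Their neighbour Ccl12, a mouse monocyte attractant, had 283 and 195 counts in WT against 12 and 66 in Sirt6 cKO. The groups did not overlap and the log2 fold change was -2.58, but with 12 counts in one library its standard error was 1.04 and it did not pass (unadjusted p = 0.051). Ccl12 passed in 6 of 9 other fits to all 4 libraries. It was -4.22 and passed without Sirt6 cKO 2, and it was -1.84 and did not pass without Sirt6 cKO 1. Ccl2, the main CCR2 ligand, overlapped instead, with 208 and 172 TPM in WT and 109 and 199 TPM in Sirt6 cKO. Ccr2, named after its values were seen, was at 55.6 and 37.2 TPM in WT and 41.4 and 48.8 TPM in Sirt6 cKO.

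Macrophage markers moved the same way as Ccl7, Ccl11 and Ccl12. C1qa was at 818 and 325 TPM in WT and 212 and 205 TPM in Sirt6 cKO, and Lyz2 at 9532 and 5941 against 3664 and 3955 TPM. Without Lyz2 the list still summed to 1949 and 856 TPM in WT and 523 and 551 TPM in Sirt6 cKO. The fibroblast list, 7 genes, overlapped at 608 and 696 TPM in WT and 553 and 642 TPM in Sirt6 cKO, with Lum alone lower. The part of these cells in the ligand values was not tested.

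**Figure D4:**
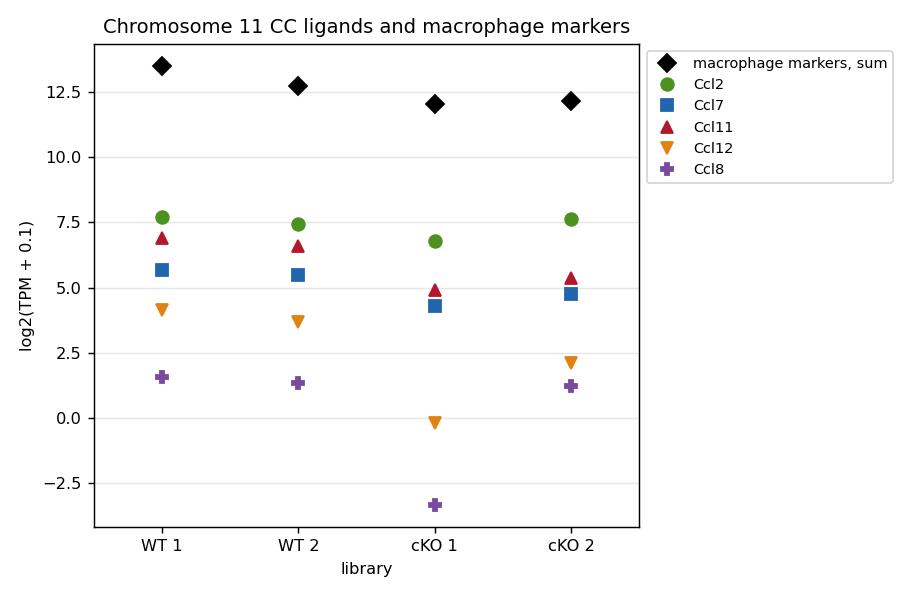
Levels as log2(TPM + 0.1) in each of the 4 libraries for 5 neighbouring CC ligands of chromosome 11 and for the sum of 10 macrophage markers (black diamonds). The marker sum, Ccl7, Ccl11 and Ccl12 are lower in both Sirt6 cKO libraries than in both WT libraries, while Ccl2 in Sirt6 cKO 2 lies between the WT libraries.

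The remaining abundant CC ligands did not pass. Ccl6 and Ccl9, mouse ligands of CCR1, were at 388 and 419 TPM in WT against 365 and 473 TPM, and at 278 and 368 TPM against 341 and 384 TPM. Both overlapped between the groups, and neither log2 fold change (0.06 and 0.18) exceeded its standard error of 0.19. Ccl5, a ligand of CCR1 and CCR3 made by T cells among others, was at 165 and 208 TPM in WT and 125 and 152 TPM in Sirt6 cKO. Ccl5 did not overlap, but its log2 fold change of -0.42 (standard error 0.26) did not pass.

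The neutrophil-attracting CXC ligands split in direction. They are Cxcl15 and the CXCR2 ligands Cxcl1, Cxcl2, Cxcl3 and Cxcl5. Of these 5 ligands 2 were higher and 1 lower, beside 5.28% and 3.31% of all genes. Cxcl1 was at 1010 and 949 TPM in WT and 1366 and 1250 TPM in Sirt6 cKO. Its libraries were close within each group, so that a log2 fold change of 0.43 (standard error 0.15) reached an unadjusted p of 0.036. Cxcl2 was at 257 and 236 TPM in WT and 422 and 310 TPM in Sirt6 cKO (0.58, standard error 0.22, unadjusted p = 0.044). Cxcl5 was lower instead, at 136 and 123 TPM in WT and 57.1 and 81.9 TPM in Sirt6 cKO (-0.89, standard error 0.26, unadjusted p = 0.016). Scaled by library size alone or by the upper quartile, Cxcl1, Cxcl2 and Cxcl16 no longer passed, and Cx3cl1 was the 1 member that was higher under each. Cxcl1 did not pass with any library left out (0.36 to 0.48), Cxcl2 passed only without Sirt6 cKO 2 (0.34 to 0.77), and Cxcl5 did not pass without WT 1 (-0.82) or Sirt6 cKO 1 (-0.65).

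Cxcl1, Cxcl2 and Cxcl3 are neighbours on chromosome 5 and are known targets of NF-κB, so the bases before their RefSeq starts are shown. The run in capitals, GGGAATTTCC, matches the κB consensus, and was searched on both strands after these promoters had been seen.
Cxcl1 (chr5:90890995-90891244): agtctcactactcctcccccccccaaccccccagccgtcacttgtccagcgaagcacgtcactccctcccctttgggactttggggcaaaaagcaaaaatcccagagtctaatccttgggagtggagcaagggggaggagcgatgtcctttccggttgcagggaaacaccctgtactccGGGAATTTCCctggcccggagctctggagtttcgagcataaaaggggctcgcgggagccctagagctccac
Cxcl2 (chr5:90903649-90903898): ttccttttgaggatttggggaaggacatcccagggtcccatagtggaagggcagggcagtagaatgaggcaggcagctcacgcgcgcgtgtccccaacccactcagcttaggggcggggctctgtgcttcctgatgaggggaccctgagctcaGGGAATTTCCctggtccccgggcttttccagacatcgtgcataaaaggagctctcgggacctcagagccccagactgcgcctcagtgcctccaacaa
Cxcl3 (chr5:90785851-90786100): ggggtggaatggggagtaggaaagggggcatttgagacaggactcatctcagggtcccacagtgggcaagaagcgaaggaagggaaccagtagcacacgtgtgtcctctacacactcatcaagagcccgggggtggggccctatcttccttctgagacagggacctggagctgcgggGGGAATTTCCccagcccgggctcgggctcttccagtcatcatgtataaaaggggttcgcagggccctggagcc
All 3 are on the plus strand of GRCm38.p6, 250 bases each. The capitals begin 71, 97 and 73 bases before the start. This exact run occurs in 29 of 27025 mouse promoters of the same kind (0.11%) and in 4 of the 42 members with a promoter in the table, the other being Ccr3. The run was taken from the promoters of Cxcl1 and Cxcl2, so their matches were fixed beforehand and the member count measures no enrichment. The wider κB consensus, of which the run is one form, occurs in 11 of these 42 members (26.2%) and in 9.55% of all promoters. These 11 include Cxcl1, Cxcl2 and Cxcl3, and apart from Cxcl1 and Cxcl2 none of them passed in either direction. The run TATAAA, searched in the same way, was also more frequent in members, at 13 of 42 (31.0%) against 15.67%. Enrichment was not tested for either. A match is a run of letters and not a measured site. Cxcl3, named here for its sequence, was at 82.7 and 91.8 TPM in WT and 110 and 69.9 TPM in Sirt6 cKO (0.06, standard error 0.31).

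Ligands of CXCR3, which interferons induce, did not pass in any of 3 cases. Cxcl10 was at 390 and 325 TPM in WT and 459 and 339 TPM in Sirt6 cKO, with overlap. Cxcl9 was at 122 and 105 TPM in WT and 104 and 96.7 TPM in Sirt6 cKO, apart by a narrow margin that closed in the scaled counts (-0.17, standard error 0.19). Cxcl11 was at 125 and 116 TPM in WT and 83.1 and 14.6 TPM in Sirt6 cKO. The second Sirt6 cKO library was far below the first, and the log2 fold change of -1.30 had a standard error of 0.76. Cxcl11 was at -3.04 without Sirt6 cKO 1. It passed with limma, and with DESeq2 before adjustment only (DESeq2 adjusted p = 0.42). Cxcl11 is annotated as a polymorphic pseudogene, and 1582 bases of its exons lie opposite Gm2673. Cxcr3 had 188 and 99 counts in WT against 52 and 32 in Sirt6 cKO (-1.70, standard error 0.94), without overlap and with 50.7% of its counts in WT 1.

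Of the 19 receptor genes 2 were lower, Cxcr6 and Ccr8, and none was higher, beside 3.31% and 5.28% of all genes. Ccr8, the receptor of CCL1 and CCL8 on regulatory and maturing T cells, was at 61.6 and 56.4 TPM in WT and 30.5 and 29.6 TPM in Sirt6 cKO. The libraries of each group were close together, and the log2 fold change was -0.97 (standard error 0.27, unadjusted p = 0.013). Ccr8 did not pass without either Sirt6 cKO library (-0.99 and -0.96). Its ligand Ccl1 was at 10.9 and 9.98 TPM in WT and 12.7 and 8.87 TPM in Sirt6 cKO (named after its values were seen). Over the 13 thymocyte markers, the cells in which several of these receptors are known, the sum was 1891 and 1413 TPM in WT and 1653 and 1038 TPM in Sirt6 cKO, which overlapped, and no marker passed. Of the 13 markers 4 had a log2 fold change above 0 and 9 below, with a median of -0.40. The part of thymocytes in the receptor values was not tested. CD45+ cells had been gated out in the sort, yet Ptprc and 5 other leukocyte genes together summed to 2351 and 2267 TPM in WT and 2443 and 1969 TPM in Sirt6 cKO.

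Cxcr4, the CXCL12 receptor of thymocytes and most leukocytes, was low and uneven. It had 88 and 146 counts in WT against 358 and 112 in Sirt6 cKO, and a single library, Sirt6 cKO 1, held 50.9% of them. The log2 fold change of 1.08 (standard error 0.84) was -0.06 without that library. Xcr1, the receptor of XCL1 on cross-presenting dendritic cells, had 631 and 516 counts in WT against 213 and 490 in Sirt6 cKO, without overlap after scaling (-0.67, standard error 0.50). The 9 dendritic cell markers summed to 708 and 816 TPM in WT and 883 and 876 TPM in Sirt6 cKO. Most of this was Irf8, the only gene that passed, at 452 and 516 TPM in WT and 600 and 664 in Sirt6 cKO. Of the 9 genes 4 had a log2 fold change above 0 and 5 below, with a median of -0.20.

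The rule for naming genes left 22 members, of which 21 were tested. None of them passed, as the rule takes every member that did. Their log2 fold changes ran from -2.70 (Ccl24, 197 and 146 counts in WT, 0 and 52 in Sirt6 cKO) to 0.64 (Ccr3). Besides those named above they included Ccl3, Ccl4, Ccl27a, Ccl27b, Cxcl13, Cxcl14, Cxcl15, Cxcl17, Ccr1, Cxcr2, Cxcr5 and Cxcr7. Leaving out Ccl24, Ccl8 and Cxcr1, both Sirt6 cKO libraries were below both WT libraries in 5 of 18 and above in 0. Over all genes tested, with none left out, these shares were 20.3% and 21.6%.

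Genes that act below or beside these receptors were examined as 2 further lists. Of 52 tested genes of chemokine receptor signal transduction 4 were higher (Ptk2b, Pxn, Rgs3 and Rgs16) and 2 were lower (Plcb2 and Rgs13), with a median log2 fold change of -0.06. Of all genes 5.28% were higher and 3.31% lower, so the list is close to the background. Rgs16, which shortens G protein signals, was at 144 and 139 TPM in WT and 288 and 271 TPM in Sirt6 cKO (0.99, standard error 0.16). Rgs13, of the same family, was at 59.0 and 69.0 TPM in WT and 12.8 and 16.2 TPM in Sirt6 cKO (-2.13, standard error 0.29). The paxillin gene Pxn was at 12.9 and 20.4 TPM in WT and, unevenly, at 92.7 and 36.2 TPM in Sirt6 cKO. Beside Rgs13 and Plcb2, the tuft cell genes Trpm5, Avil and Gnat3 were lower as well. Gnat3 was at 22.8 and 22.4 TPM in WT and 3.44 and 2.21 TPM in Sirt6 cKO. Of the 7 tuft cell genes 5 had a log2 fold change below 0, while Pou2f3 (0.24) and Dclk1 (0.36) were above 0 without passing. The part of tuft cells was not tested. Of 8 tested further ligands and atypical receptors, such as Pf4, Ppbp and Ccrl2, none passed in either direction.

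Chemokine genes lie in clusters, and by the sign of the fold change alone 6 of 10 clusters held both directions. The cluster of Ccl26 and Ccl24 had 1 tested gene and could not. Genes at most 500 kb apart were joined, which placed 40 symbols in the 10 clusters. On chromosome 8 the 3 neighbours Ccl22, Cx3cl1 and Ccl17 had log2 fold changes of 0.61, 0.73 and 0.58. On chromosome 4 all 5 of Ccl27a, Ccl21b, Ccl27b, Ccl19 and Ccl21a were below 0, from -2.37 to -0.29, although the copies there share reads. Ccl27a (standard error 0.94) and Ccl27b (standard error 1.23) overlapped between the groups. On chromosome 11 the cluster from Ccl2 to Ccl1 had 5 of 6 below 0, down to -2.58 for Ccl12, while the cluster from Ccl5 to Ccl4 ran from -0.50 to 0.18. The Cxcl5 cluster on chromosome 5 ran from -0.89 at one end to 0.58 for Cxcl2 at the other. The receptors of the Ccr9 cluster on chromosome 9 ran from -2.74 for Cxcr6 to 0.64 for Ccr3, named here by its place in the cluster.

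**Figure D5:**
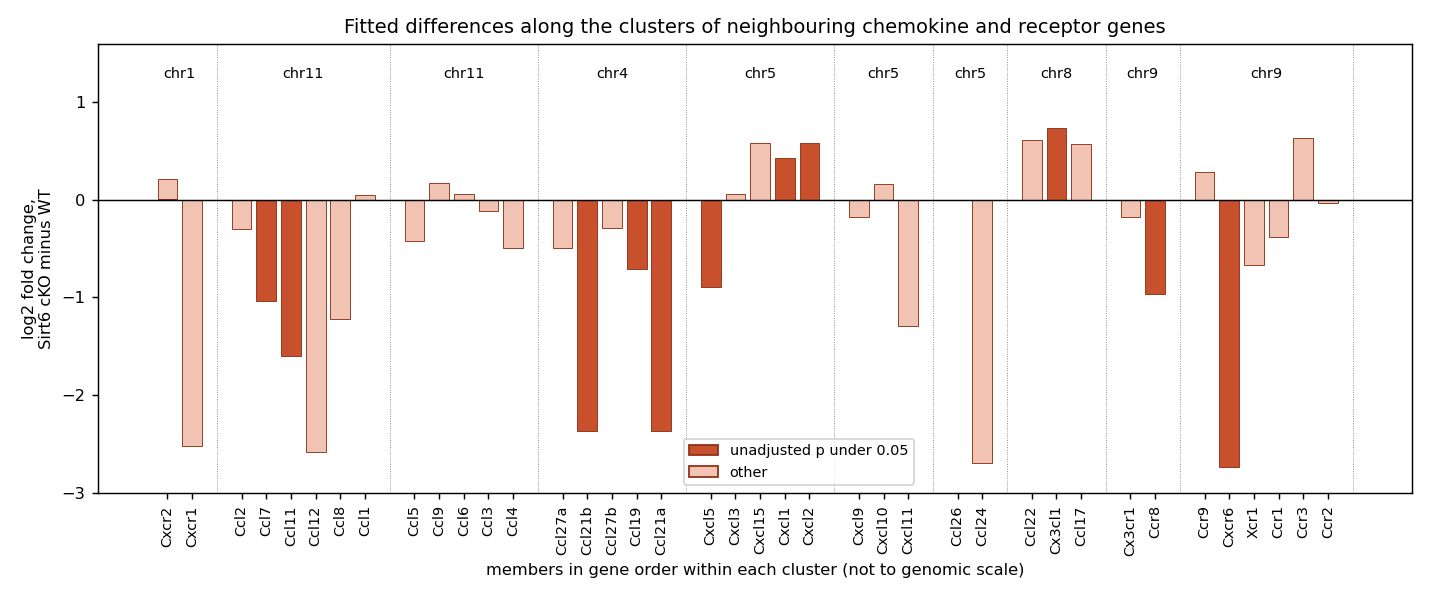
Log2 fold change of Sirt6 cKO over WT for the reported members of 10 gene clusters in their order along each chromosome, not to genomic scale, with dark bars for an unadjusted p under 0.05 and Ccl21a and Ccl21b fitted as separate genes. The 3 bars on chromosome 8 are above 0, the 5 on chromosome 4 are below 0, and the Cxcl5 cluster on chromosome 5 holds both directions.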

How the data were processed

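RNA of sorted mTECs was sequenced in 4 libraries. The authors trimmed reads with Trim Galore and, per the submitters' processing notes, aligned them to mm10 with HISAT2 2.1.0 and quantified genes with StringTie 1.3.3. They deposited 1 table of whole-number counts and, per library, StringTie TPM values summing to 1000000 after 1 line naming no gene, which held 100% of that sum, was dropped. Annotation and strand setting are not given in the sources used here.

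Counts of Ccl21a, Ccl21b and Ccl21c were summed and all genes tested with edgeR 4.0.16 (TMM, filterByExpr with minimum count 10 and total 15, quasi-likelihood test) in R 4.3.3, without covariates. TMM factors were 0.966 to 1.04, and the dispersion gave a biological coefficient of variation of 0.557. The Benjamini-Hochberg method adjusted the p-values. Libraries of each pair differed beyond sampling noise (chi-square per gene 161 or more). The procedure was tested on simulated counts.

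Alternatives were DESeq2 1.42.0, no filter, upper quartile scaling, library size alone, limma 3.58.1 on log2(TPM + 1) and log2(TPM + 0.1), the replicate number as a block, each library left out, the copies kept separate and further copies added. Members, lists and tests were chosen with earlier results of these data known. The text names members with an unadjusted p under 0.05, the 15 with the highest mean TPM, the ligands and receptors of 8 axes (CCR7, CCR9, CCR4, CCR6, CXCR3, CXCR4, XCR1, CX3CR1), those of at least 30 counts with over 50% in 1 library, the Ccl21 copies, and Sirt6, and others are marked. GENCODE M21 placed 57 of 58 symbols, and RefSeq promoters (GRCm38.p6) 42. Motif counts used 250 bases before to 50 after each start. The values of 1 member are counted in the totals and are not reported here.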

Additional observations from a re-analysis of the deposited data

How the results depend on the processing

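Ccl21 was lower and under an unadjusted p of 0.05 in all 12 alternative fits that gave it a value, from -2.42 to -2.23 with all 4 libraries and from -2.84 to -1.59 with one left out. Members at an adjusted p of 0.05 numbered 3 with DESeq2 and 0 in the other alternatives. Members higher numbered 1 with library size alone and 1 with the upper quartile, beside 721 and 751 of 18545 genes. In the main fit 979 genes were higher. Members lower numbered 7 to 12 in the alternative fits to all 4 libraries. Over all genes the lower ones also moved, from 448 of 18545 with the replicate block to 925 of 20995 with DESeq2. With a library left out, no more members passed in either direction than in the main fit, and the calls over all genes moved as well. Library size alone and the upper quartile moved the median of all genes to -0.093 and -0.086, and the share of higher genes among those called from 61.5% to 46.3% and 48.4%. The ligand median was -0.36 with library size alone, -0.355 with the upper quartile, -0.23 with limma on log2(TPM + 1), and -0.258 to -0.126 with a library left out. The receptor median stayed between -0.206 and -0.007.

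For the libraries numbered 1 the correlation of deviations across genes was -0.0509. A single value over all genes cannot exclude an effect of the replicate number on some of them. With the replicate block 4 members were higher, 8 lower and 0 passed adjustment, with Ccl21 at -2.23. Among the higher members Cxcl16 (0.65) no longer passed under the block and Ccl22 (0.58) did. Over all genes the block called 697 higher and 448 lower. With a library left out, the lone library of a group was assumed to vary like the other group. Of 442 comparisons of 34 single genes, 377 kept direction and side of the threshold, 32 no longer passed, 16 passed anew and 17 reversed. With a library left out, the values ran from -1.07 to 2.67 for Cx3cr1, -0.294 to 0.623 for Cxcl12, -0.149 to 0.237 for Ccl6, -0.805 to 0.069 for Ccl2, -0.31 to 0.072 for Ccl25, -0.016 to 0.37 for Ccl9, -0.074 to 0.356 for Cxcl10, -0.056 to 1.68 for Cxcr4 and -0.034 to 0.654 for Xcl1. Cx3cr1 also reversed to 0.716 with the replicate block and to 0.679 and 0.38 with limma on log2(TPM + 0.1) and log2(TPM + 1), where Cxcl12 reversed to -0.03 and -0.029. Ccl6 reversed to -0.026 with library size alone and -0.015 with the upper quartile. The cause of these moves was not tested.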
